A study of Mus musculus with 4 samples.

Results

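The genes of the constitutive proteasome, the form found in most cells, were chosen by symbol: every probe set with a single symbol that starts with Psma, Psmb, Psmc or Psmd and a digit, without Psmb8, Psmb9 and Psmb10. This gave 76 of 45037 probe sets and 37 of 18193 genes, and each gene was read from its brightest probe set, by the mean of the arrays. Of the 37 genes, 31 encode constitutive subunits, 14 of the core and 17 of the regulatory particle. The other 6 are the testis alpha subunit Psma8, the thymic beta subunit Psmb11, the assembly chaperones Psmd5, Psmd9 and Psmd10, and Psmc3ip, which the symbol rule takes in although it encodes a meiotic recombination factor and no proteasome subunit. Where core and regulatory particle are set against each other, Psma8 and Psmb11 count as core (16 genes), the chaperones count as regulatory (20 genes), and Psmc3ip is left out.

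The proteasome is the large protease that degrades ubiquitin-tagged proteins in the cytosol and nucleus. Its barrel-shaped core particle is built from rings of alpha subunits, which form the gate, and rings of beta subunits, some of which cut peptide bonds. A regulatory particle caps the core: its base holds a ring of ATPases that unfold substrates, and its lid removes ubiquitin. In antibody-secreting cells the proteasome carries a heavy load of misfolded secretory protein, and such cells are known to be sensitive to proteasome inhibitors. Cells exposed to interferon replace the 3 catalytic beta subunits by the inducible ones Psmb8, Psmb9 and Psmb10, which were kept apart from the genes described here.

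RNA came from subclones of 36-65, a mouse hybridoma (the fusion product of a myeloma cell and a B cell, which secretes 1 antibody). The high switching class held subclones H23 and H27 (replicates 1 and 2), which changed their antibody class spontaneously and often in culture, and the low switching class held subclones L25 and L27 (replicates 1 and 2), which did so rarely. All 4 share the parent hybridoma and were grown in the same supplemented medium with fetal calf serum, with no other treatment named, and each class is known from 2 clones only. Each subclone gave 1 array of total RNA, and the labels do not say whether the subclones of a class arose separately. Every p-value sets a difference against the spread between arrays of a class, which the test pools with that of all probe sets. It therefore speaks for these 4 arrays only. With 4 arrays, precision is limited by their number.

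Median intensities of the 4 arrays ran from 38.1 to 39.3. Of the plasma cell markers, the antibody joining chain Jchain had log2 intensities of 14.43 and 14.49 in high switching subclones, against 14.35 and 14.49 in low switching subclones, and Sdc1 (syndecan) and Irf4 were also far above the median probe set. Of these markers Xbp1 (-0.71) and Tnfrsf17 (-0.71), which encode a secretory transcription factor and a survival receptor, fell in high switching subclones. Prdm1, a driver of plasma cell fate, had 11.82 and 12.06 in high and 10.91 and 11.48 in low switching subclones (0.74; limma adjusted p = 0.119), and Mzb1 had a difference of -0.38 (adjusted p = 0.295), so neither passed. Of the B cell genes, Cd79a, Pax5 and Cd22 were near the median probe set (means from 5.02 to 5.37), while Ms4a1 and Cd79b were bright and Cd79b rose (0.77). The median level of the T cell, myeloid, fibroblast and erythroid markers was 6.10, 6.54, 4.92 and 4.06, against 5.28 for the median probe set. Of the other cell types' markers, Cd68 was bright (10.35 and 10.17 in high, against 9.58 and 9.86 in low switching subclones), and Itgam fell (-1.38) and Lum rose (1.21); their part in the values below was not tested. In these bulk samples, fewer cells of a type and less RNA per cell cannot be told apart.

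No constitutive proteasome gene was called between high and low switching subclones, and the measured differences of the subunits went in both directions. None of the 76 member probe sets passed limma's test (0 at an adjusted p under 0.05, with 3.59% of all 45037 probe sets called), and the smallest adjusted p was 0.0592, for Psmc3ip. Over all probe sets 1.5% were called higher and 2.1% lower in high switching subclones. At an unadjusted p under 0.05 there were 17 of 76 probe sets (22.4%, against 18.6% of all probe sets), or 10 of 37 genes (against 22.9% of all genes, and 34.3% of the genes whose mean log2 intensity reached 10), 6 higher and 4 lower. Other variance models, filters, scalings and a log offset called between 0 and 3 of the member probe sets, always among Psmc1, Psma5, Psma2 and Psmc3ip. The classes did not overlap for 20 of the 37 genes (54.1%), 10 in each direction, against 51.4% of all genes and 66.4% of those with a mean of at least 10.

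The median log2 difference, high minus low switching, was -0.005 over the 37 genes and 0.01 over the 31 constitutive subunits, against 0.008 over all genes. Of the 31 subunits, 16 had a positive and 15 a negative difference, from 0.744-fold (Psma2) to 1.43-fold (Psmc1). The 95% interval of each of the 31 differences lay between -0.71 and 0.78, so a difference of 1 (2-fold) was outside all of them, and for 21 subunits the interval also stayed within 0.5 of 0. The spread of the differences over the 31 subunits was 0.23 (SD), against 0.37 over the 2717 genes whose mean log2 intensity reached 10, which is a description and not a test. Between the single arrays of a class, the spread over the 31 subunits was 0.17 for high switching replicate 2 minus 1. It was 0.16 for low switching replicate 2 minus 1, and over those 2717 genes the values were 0.23 and 0.19. The class difference is between means of 2 arrays, so its spread is not on the same scale. For 1 high minus 1 low switching array, the spread over the 31 subunits ran from 0.22 to 0.30.

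**Figure D1:**
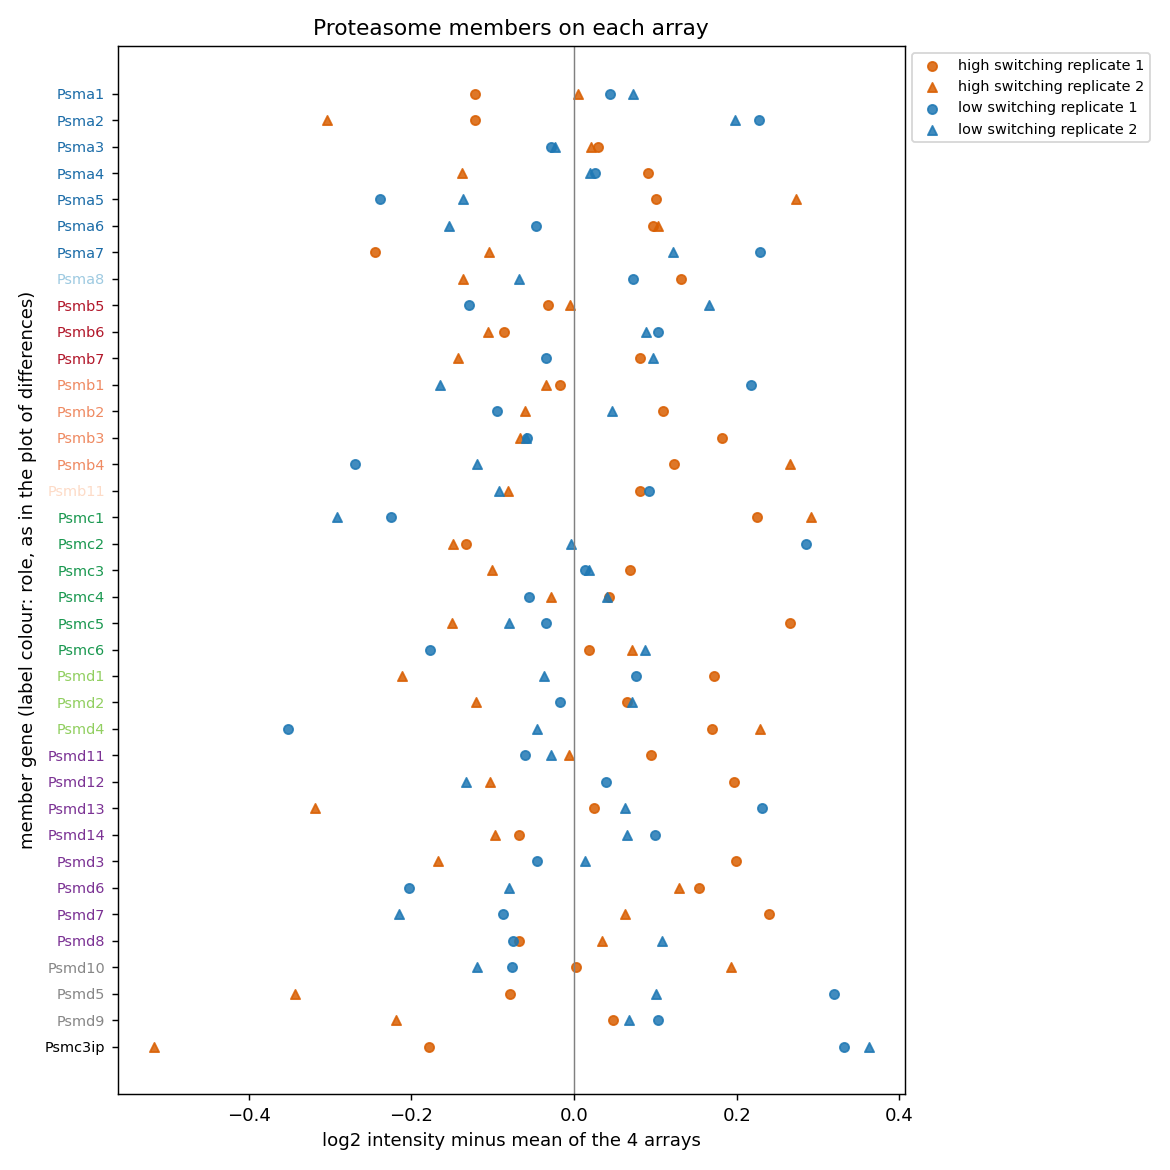
Log2 intensity of each of the 37 genes on each array minus the mean of its 4 arrays (x axis, log2), with 1 row for each gene, high switching arrays in orange and low switching arrays in blue (circles replicate 1, triangles replicate 2). The classes separate for 20 genes in both directions, and the widest separation is in Psmc3ip, in the bottom row.

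The alpha ring held differences of both signs. Psma2, an alpha ring subunit, had log2 intensities of 13.11 and 12.93 in high switching subclones, against 13.46 and 13.43 in low switching subclones. Both high switching values lay below both low switching values, and the difference was -0.43 ± 0.12 (SE; interval -0.71 to -0.14; limma adjusted p = 0.117). Psma7, another alpha subunit, read 11.97 and 12.11 in high and 12.44 and 12.34 in low switching subclones, a difference of -0.35 ± 0.11 (adjusted p = 0.176), and its second probe set gave -0.40. Psma5 went the other way, with 13.27 and 13.44 in high and 12.93 and 13.03 in low switching subclones. Its difference was 0.37 ± 0.12 (adjusted p = 0.161), its other bright probe set gave 0.48, and the classes did not overlap on either. The other alpha subunits stood closer to 0, with differences of -0.12 for Psma1, -0.05 for Psma4, 0.05 for Psma3 and 0.20 for Psma6. Over the 7 alpha ring genes the median was -0.05.

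The 3 catalytic subunits had differences between -0.19 and -0.04, none of which passed. Psmb5, which carries the chymotrypsin-like activity and is the main target of proteasome inhibitors, had log2 intensities of 12.98 and 13.01 in high switching subclones, against 12.88 and 13.18 in low switching subclones. The high switching pair lay between the low switching pair, and the difference was -0.04 ± 0.13 (interval -0.36 to 0.29). Psmb7, the trypsin-like subunit, had 13.17 and 12.95 in high and 13.06 and 13.19 in low switching subclones, a difference of -0.06 ± 0.13 with overlapping classes. Psmb6, the caspase-like subunit, had 12.35 and 12.33 in high and 12.54 and 12.53 in low switching subclones. These pairs were tight and did not overlap, and the difference was -0.19 ± 0.10 (interval -0.44 to 0.06; limma adjusted p = 0.405). Among the other beta subunits, which are structural, Psmb1 (-0.05), Psmb2 (0.05) and Psmb3 (0.12) stood near 0. Psmb4 had 13.37 and 13.51 in high and 12.98 and 13.13 in low switching subclones, a difference of 0.39 ± 0.12 (adjusted p = 0.153), and its second probe set gave 0.45.

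The inducible counterparts of the catalytic subunits had lower means in high switching subclones, and none passed the test. Psmb8, the counterpart of Psmb5, had log2 intensities of 11.53 and 11.43 in high switching subclones, against 12.32 and 11.79 in low switching subclones (-0.57 ± 0.18; limma adjusted p = 0.169). Psmb9, the counterpart of Psmb6, had 11.02 and 10.55 in high and 11.53 and 11.10 in low switching subclones (-0.53 ± 0.21; adjusted p = 0.248), and Psmb10, the counterpart of Psmb7, had 10.64 and 10.43 in high and 11.00 and 10.56 in low switching subclones (-0.24 ± 0.17; adjusted p = 0.55). Low switching replicate 1 was the highest array for all 3 inducible genes. Without it the differences of Psmb8, Psmb9 and Psmb10 were -0.31, -0.32 and -0.02, and without high switching replicate 2 that of Psmb9 was -0.30. It was the highest of the 4 arrays for Psmb6 only among the constitutive catalytic genes.

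**Figure D2:**
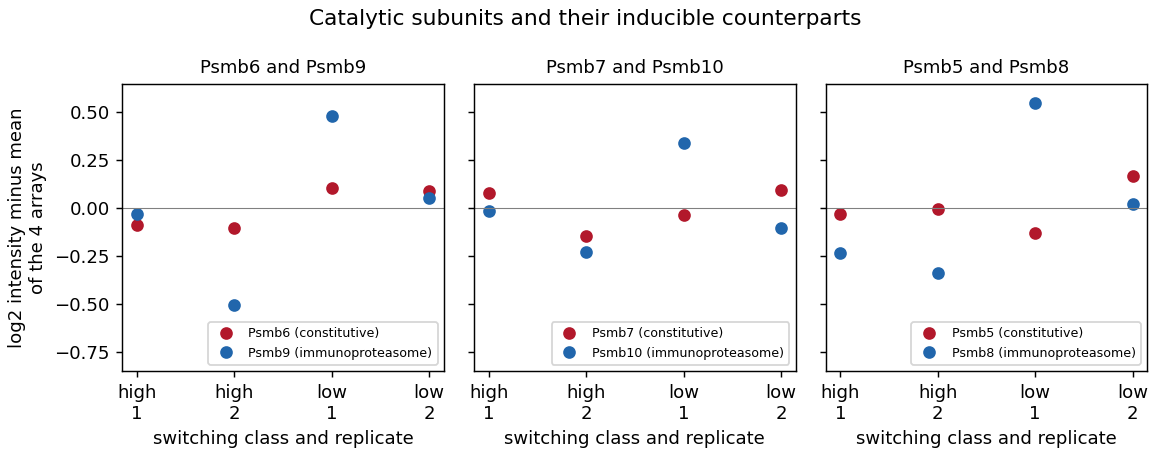
Log2 intensity minus the mean of the 4 arrays (y axis, log2) for each catalytic subunit (red) and its inducible counterpart (blue), with the 2 high switching arrays left of the 2 low switching arrays. The red points stay within 0.2 of 0 on all 4 arrays, while the blue points are highest on low switching replicate 1 and lowest on high switching replicate 2.

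In the base of the regulatory particle, Psmc1 had the largest positive difference of any member. This ATPase subunit had log2 intensities of 11.45 and 11.51 in high switching subclones, against 11.00 and 10.93 in low switching subclones. The classes were well apart and each pair was tight, with a difference of 0.52 ± 0.11 (1.43-fold; interval 0.26 to 0.78; limma adjusted p = 0.0609). Psmc1 passed with a variance trend (adjusted p = 0.0415), with the same trend and robust estimation (0.0426), with an offset of 16 before the log (0.043), with probe sets of a mean under 6 left out (0.0467) and with cyclic loess (0.0495), so its call depends on these settings. Its adjusted p ran from 0.0415 to 0.311 over the alternatives other than a minimum fold of 1.5, under which it was 1, and it was not called in the 4 fits that dropped an array. The second Psmc1 probe set, which is dim, gave 0.16. The other ATPases had differences of -0.28 for Psmc2, -0.03 for Psmc3, 0.01 for Psmc4, 0.11 for Psmc5 and 0.09 for Psmc6, and over the 6 ATPases the median was 0.05. The other probe sets of Psmc6, less bright, gave 0.33 and 0.30, and that of Psmc4 gave -0.14.

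Of the base subunits that are no ATPases, Psmd4, a receptor for ubiquitin chains, had log2 intensities of 12.32 and 12.38 in high switching subclones, against 11.80 and 12.11 in low switching subclones. The classes did not overlap, and the difference was 0.40 ± 0.14 (limma adjusted p = 0.193). Without low switching replicate 1 it was 0.24. Its 3 probe sets gave 0.40, 0.47 and 0.10, the widest disagreement among the 13 members with more than 1 probe set of a mean of at least 7. Psmd2, where shuttle proteins and the deubiquitinase Usp14 dock, had 11.64 and 11.46 in high and 11.56 and 11.65 in low switching subclones, a difference of -0.06 ± 0.12. Psmd1, the other large scaffold of the base, differed by -0.04 and had 11.42 and 11.04 on the high switching arrays, farther apart than the classes.

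The 8 lid subunits had a median difference of 0.06. Psmd14, the deubiquitinase that removes ubiquitin chains as a substrate enters, had log2 intensities of 12.54 and 12.51 in high switching subclones, against 12.71 and 12.67 in low switching subclones. The pairs did not overlap, but the difference was small (-0.16 ± 0.10; interval -0.42 to 0.09; limma adjusted p = 0.487). Psmd6 had a difference of 0.28, and Psmd7, the partner of Psmd14, one of 0.30. Psmd13 had one of -0.29, and its other bright probe sets gave -0.32 and -0.02. Psmd3 (0.03), Psmd8 (-0.03), Psmd11 (0.09) and Psmd12 (0.09) stood near 0.

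The members that are no constitutive subunits included both other genes below -0.4. Psmd5, a chaperone of base assembly, had log2 intensities of 10.90 and 10.64 in high switching subclones, against 11.30 and 11.08 in low switching subclones, a difference of -0.42 ± 0.14 (limma adjusted p = 0.187). The chaperones Psmd9 and Psmd10 (gankyrin) had -0.17 and 0.20. Psmc3ip had 10.03 and 9.69 in high and 10.54 and 10.57 in low switching subclones, the largest difference of the 37 genes (-0.70 ± 0.14; 0.618-fold; adjusted p = 0.0592). Its second probe set gave -0.78 (adjusted p = 0.0608). It passed with probe sets of a mean under 6 left out (0.0443), with those below the median probe set left out (0.0496), with the mean over its probe sets (0.0428) and with a robust variance trend (0.0495), within a range of 0.0428 to 0.218 over the alternatives other than a minimum fold of 1.5, under which it was 1. Psma8 (4.04 and 3.77 in high, 3.98 and 3.84 in low switching subclones) and Psmb11 lay below the median probe set of 5.28, and their differences were -0.005 and 0.00.

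**Figure D3:**
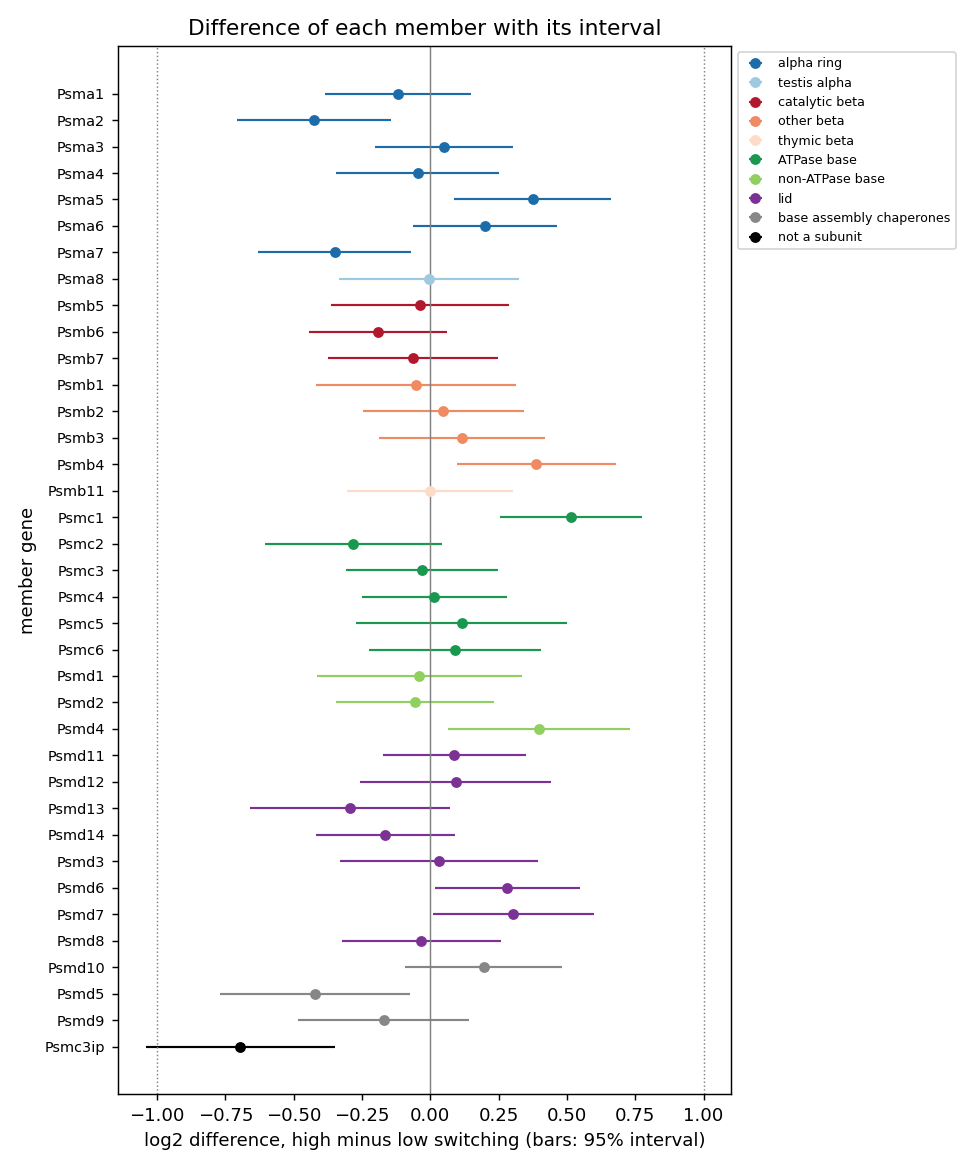
Log2 difference of each member, high minus low switching (x axis), with its 95% interval from limma, coloured by role in the proteasome. The interval of every constitutive subunit lies between the dotted lines at -1 and 1, and the only interval that crosses one of them is that of Psmc3ip.

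Core and regulatory particle genes had nearly the same median difference. The median difference was -0.02 over the 16 core genes and 0.02 over the 20 regulatory genes, a core minus regulatory difference of -0.04. Array by array, core minus regulatory medians of the deviation from each gene's mean were 0.01 and 0.04 in high switching subclones, against 0.04 and -0.01 in low switching subclones, so the classes overlapped. The sign of the difference was not settled either: it ran from -0.08 to 0.03 as single arrays were left out, and it was 0.03 without multi-transcript probe sets (names ending in _x_at, _s_at or _a_at). Within classes, the widest gaps between the high switching arrays (replicate 2 minus 1) were those of Psmc5 (-0.42), Psmd1 (-0.38) and Psmd3 (-0.37), all of the regulatory particle. Between the low switching arrays they were those of Psmb1 (-0.38) and Psmd4 (0.31). These genes were picked after their values were seen.

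The difference of a subunit was close to that of the genes beside it on its chromosome. For each gene, the median log2 difference of the 20 genes on each side was taken, from 8207 genes with a mean of at least 7. Over the 31 constitutive subunits, a subunit's own difference and that of its neighbours had a Pearson r of 0.89 (Spearman rho 0.89), and the 2 had the same sign for 24 of 31. Over 2712 genes with a mean of at least 10 the same r was 0.57, and the sign was shared by 74.4%. These are correlations across genes of the same 4 arrays, given as a description. Subunits that lie within 20 places of each other (Psmb4 and Psmd4, Psmb3 and Psmd3, Psmc5 and Psmd12) share neighbours and are neighbours of each other.

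Chromosome 3 showed this most plainly. It carries 3 of the subunits, one of the alpha ring (Psma5), one of the beta ring (Psmb4) and one of the base (Psmd4). Their differences were 0.37, 0.39 and 0.40, and those of their neighbours 0.37, 0.30 and 0.28, while the median of the 370 chromosome 3 genes with a mean of at least 7 was 0.37. At the other end, Psma2 on chromosome 13 (-0.43) had neighbours at -0.37, Psmc2 on chromosome 5 (-0.28) had neighbours at -0.31, and Psma7 on chromosome 2 (-0.35) had neighbours at -0.30. Psmc1 on chromosome 12 stood above its neighbours (0.52 against 0.28), and Psmd11 on chromosome 11 had the largest gap (0.09 against -0.17). The gap of Psmd11 depends on the probe set, since its other bright ones gave 0.20, -0.07 and -0.09. Without the 3 subunits of chromosome 3, r was 0.85 over 28. Of the inducible genes, which are not among the 31, Psmb8 (-0.57), Psmb9 (-0.53) and Psmb10 (-0.24) had neighbours at -0.20, -0.22 and 0.05.

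**Figure D4:**
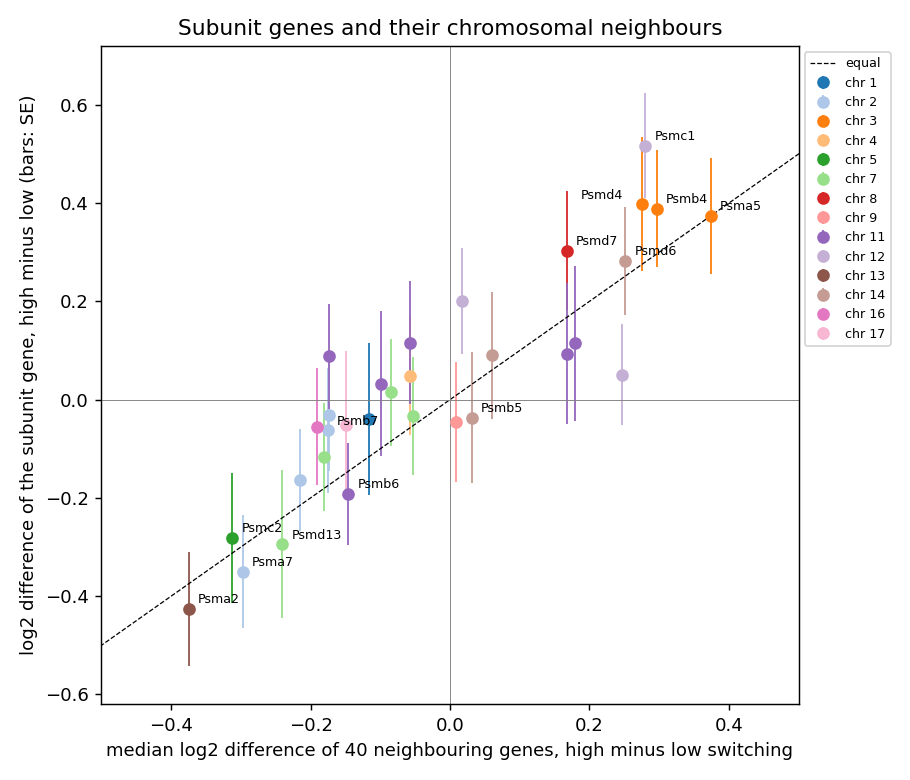
Log2 difference of each of the 31 constitutive subunits (y axis, high minus low switching, bars SE) against the median log2 difference of the 20 genes on each side (x axis), coloured by chromosome, with a dashed line of equality. The points follow the line from Psma2 at the lower left to Psma5, Psmb4 and Psmd4 at the upper right, with r = 0.89.

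The relation was also there when the subunit and its neighbours were read on different arrays. With subunits taken from high minus low switching replicates 1 and neighbours from replicates 2, r was 0.71, and with these exchanged it was 0.67. With the arrays crossed, r was 0.56 (subunits from high switching replicate 1 and low switching replicate 2) and 0.61 (subunits from high switching replicate 2 and low switching replicate 1). The same figures over the 2712 bright genes were 0.46, 0.44, 0.40 and 0.43. Within classes, r was 0.57 for high switching replicate 2 minus 1 and 0.76 for low switching replicate 2 minus 1, against 0.49 and 0.48 over the bright genes. Subtracting the neighbours' median on each array brought the spread over the 31 subunits down to 0.10 (SD), below the median SE of a single difference (0.12). That SE draws in part on the spread of all probe sets, and the cause of the relation was not tested. After the subtraction 0 of 31 subunits had an unadjusted p under 0.05 by limma, against 8 of 31 before (25.8%). The smaller spread and this count follow in part from the r of 0.89 on the same arrays and are no separate test. The share of bright genes also fell, from 34.3% of 2717 before to 20.8% of 2712 after.

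Promoter sequences were looked up in RefSeq's table (GRCm38.p6), which held 30 of the 37 genes, with 32 promoters of 300 bases each, 250 before and 50 after the start. Each was searched on both strands for TGACNNNGC (the core of the antioxidant response element, which Nfe2l1 and Nfe2l2 bind). The other motifs searched were the CCAAT box, the ETS motif with the letters CCGGAAG, and the E-box with the letters CACGTG. Results are given for these 4 motifs only, and none is given for that of nuclear respiratory factor 1. Matches to any other motif stay in lower case below, so a promoter may hold motifs that are not marked. The promoters below are those of the subunits with the 4 largest positive differences, of Psma2, the subunit with the largest negative one, and of the inhibitor target Psmb5, each 5′ to 3′ along the gene with motif matches in capitals.
Psmc1 (chr12:100109952-100110251, + strand): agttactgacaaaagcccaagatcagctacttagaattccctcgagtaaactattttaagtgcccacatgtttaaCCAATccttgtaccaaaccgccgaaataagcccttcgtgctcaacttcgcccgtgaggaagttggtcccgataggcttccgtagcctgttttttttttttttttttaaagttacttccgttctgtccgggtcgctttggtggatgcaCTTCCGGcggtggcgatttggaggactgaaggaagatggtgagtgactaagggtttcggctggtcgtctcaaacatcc
Psmd4 (chr3:95042565-95042864, - strand): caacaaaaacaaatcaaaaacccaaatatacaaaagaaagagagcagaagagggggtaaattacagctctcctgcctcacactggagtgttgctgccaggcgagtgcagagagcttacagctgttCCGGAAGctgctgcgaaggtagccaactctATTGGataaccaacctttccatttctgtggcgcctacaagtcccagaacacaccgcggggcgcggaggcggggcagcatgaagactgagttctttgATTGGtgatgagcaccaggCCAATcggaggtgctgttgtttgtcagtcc
Psmb4 (chr3:94886909-94887208, - strand): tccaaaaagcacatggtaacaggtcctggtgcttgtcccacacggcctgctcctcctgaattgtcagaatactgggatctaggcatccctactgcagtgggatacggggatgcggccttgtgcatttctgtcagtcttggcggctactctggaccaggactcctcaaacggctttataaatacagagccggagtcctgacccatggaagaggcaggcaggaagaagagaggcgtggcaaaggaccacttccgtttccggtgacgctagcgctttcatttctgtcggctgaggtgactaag
Psma5 (chr3:108256676-108256975, + strand): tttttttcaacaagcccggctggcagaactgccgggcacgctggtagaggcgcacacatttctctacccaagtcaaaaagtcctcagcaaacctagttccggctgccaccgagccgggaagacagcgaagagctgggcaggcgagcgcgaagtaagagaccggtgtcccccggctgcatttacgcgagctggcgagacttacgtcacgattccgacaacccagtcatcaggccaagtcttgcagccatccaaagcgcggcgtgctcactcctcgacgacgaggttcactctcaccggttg
Psma2 (chr13:14612992-14613291, + strand): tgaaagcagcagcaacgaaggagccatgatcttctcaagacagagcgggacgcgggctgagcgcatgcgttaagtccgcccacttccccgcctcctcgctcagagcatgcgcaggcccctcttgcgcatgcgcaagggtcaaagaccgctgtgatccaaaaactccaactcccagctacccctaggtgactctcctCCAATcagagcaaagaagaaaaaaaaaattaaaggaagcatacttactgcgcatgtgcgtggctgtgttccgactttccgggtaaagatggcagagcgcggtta
Psmb5 (chr14:54617946-54618245, - strand): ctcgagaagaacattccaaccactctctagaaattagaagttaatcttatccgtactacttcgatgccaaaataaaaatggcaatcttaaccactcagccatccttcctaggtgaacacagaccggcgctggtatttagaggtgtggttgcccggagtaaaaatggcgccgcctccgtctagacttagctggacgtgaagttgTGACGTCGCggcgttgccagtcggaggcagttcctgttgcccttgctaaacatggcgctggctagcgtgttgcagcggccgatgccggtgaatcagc
Of the 3 chromosome 3 genes, Psmd4 had 3 CCAAT matches and 1 ETS match, and Psmb4 and Psma5 had none of the 4 motifs. Psmb5 held the antioxidant response core from position -47, counted from the start. That core was in 5 of 32 member promoters (15.6%, against 12.4% of 32851 promoters of the same length). ETS matches were in 12 of 32 (37.5%, against 8.86%), CCAAT in 13 (40.6%, against 37.4%), and E-boxes in 2 (6.25%, against 7.15%). The 12 with an ETS match belong to 11 of 30 genes and include the promoter of Psmc3ip, which is no subunit. The shares were not taken over promoters of bright genes, so none of them is shown to be particular to the proteasome. Subunits with an ETS match had a median difference of 0.09 over 10 genes, and those without one -0.04 over 15. The corresponding values were 0.03 over 4 genes and 0.01 over 21 for the antioxidant response core. A match is a description of the letters only.

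Genes that build, feed or control the proteasome were taken from lists, of which 38 of 47 genes had a probe set with a single symbol. Of these 38, 1 rose and 1 fell, with 4.82% of all genes and 5.26% of those with a mean of at least 10 called by the same probe set rule, and the median difference was -0.10. The one that rose was Sqstm1, which delivers ubiquitin-tagged cargo to autophagy and to the proteasome. It had log2 intensities of 12.67 and 12.67 in high switching subclones, against 11.96 and 12.01 in low switching subclones (0.68 ± 0.10; 1.61-fold; limma adjusted p = 0.0292), and its neighbours stood at 0.02. The one that fell was Psmg4, a chaperone of alpha ring assembly, with 9.88 and 9.76 in high and 10.46 and 10.62 in low switching subclones (-0.72 ± 0.12; 0.607-fold; adjusted p = 0.0342). The neighbours of Psmg4 stood at -0.22, and with their median subtracted its difference was -0.50 and no longer passed (0.0754). Neither call survived the loss of 1 array, with adjusted p-values from 0.097 to 0.154 for Sqstm1 and from 0.0895 to 0.135 for Psmg4, while the differences stayed between 0.66 and 0.71 for Sqstm1 and between -0.80 and -0.65 for Psmg4. Both also ended with the mean over a gene's probe sets (0.0985 and 0.0508, where Psmg4 differed by -0.44) and with the hybridization control level as a block (0.102 and 0.1), and that of Sqstm1 without the multi-transcript probe sets (0.374).

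The assembly list had a median difference of -0.26 over 7 genes, whose neighbours stood between -0.30 (Psmg3) and -0.12 (Psmg1). At an unadjusted p under 0.05 by limma there were 2 of 7 (28.6%, against 22.9% of all genes). Pomp, which matures the beta subunits (-0.02), Akirin2 (-0.13), Psmg2 (-0.14), Psmg1 (-0.26), Psmg3 (-0.35) and Ecpas (-0.60, limma adjusted p = 0.064), a factor that binds the assembled proteasome, did not pass. Among activators and inhibitors of the core, Psme1 (-0.06), Psme3 (-0.07) and Psme4 (-0.03) were near 0 and the inhibitor Psmf1 had 0.44 (adjusted p = 0.145). Of the associated subunits and deubiquitinases, Usp14 had -0.27 (0.07 with its neighbours' median, -0.34, subtracted), Uchl5 0.11 and Sem1 -0.01, and 0 of 5 passed (1 at an unadjusted p under 0.05 by limma, against 22.9% of all genes). Adrm1 and Psme2 are not analysed here.

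The transcription factor Nfe2l1, which raises proteasome genes when proteasome activity falls, had log2 intensities of 10.16 and 9.94 in high switching subclones, against 9.62 and 9.58 in low switching subclones. The classes did not overlap, and the difference was 0.45 ± 0.12 (limma adjusted p = 0.114). Ngly1, the glycanase that processes Nfe2l1, had 0.50 (adjusted p = 0.076). Nfe2l2, the relative of Nfe2l1 that answers oxidative stress, had -0.35, and their partner Mafk had -0.39. The neighbours stood at -0.08 for Nfe2l1, 0.24 for Ngly1, -0.25 for Nfe2l2 and -0.29 for Mafk. Of the 8 genes of this list 0 passed, and 4 had an unadjusted p under 0.05 by limma (22.9% of all genes had one, and 34.3% of those with a mean of at least 10). Of the ubiquitin shuttles other than Sqstm1, Ubqln1 had -0.35, Rad23b -0.19, Ubqln4 0.25, Zfand5 0.15 and Ubqln2 0.02. The segregase Vcp, which extracts proteins for degradation, differed by -0.03, and its cofactors Nsfl1c, Ufd1 and Nploc4 by 0.51, 0.08 and -0.16. The E1 enzyme Uba6 differed by -0.47, and 0 of these 5 passed (2 at an unadjusted p under 0.05 by limma, against 22.9% of all genes). The neighbours of Nsfl1c stood at 0.14 and those of Uba6 at -0.31.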

How the data were processed

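Total RNA of 4 hybridoma subclones was biotin-labelled and put on 1 Affymetrix array each, per the labels' protocols. The values deposited by the authors are intensities on a linear scale, found so from their range, and the submitters' processing notes name RMA (background correction, normalization between arrays and summary of probes) with no version. Differences of dim probe sets are shrunk by RMA. Genome build and probe masking are not given in the sources used here.

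Values were transformed to log2. The 64 controls among 45101 probe sets were dropped, and 34945 of the 45037 tested had 1 symbol in the platform annotation, 932 several and 9160 none. High minus low switching was tested over all probe sets with limma 3.58.1 (lmFit and eBayes; R 4.3.3), two-sided, and adjusted by Benjamini-Hochberg at a threshold of 0.05. Errors are moderated SEs and intervals are at 95%. With 2 arrays in each class, the smallest two-sided p of an exact permutation test is 0.333. The fit was also run on simulated data, and the outcome of that run is not reported here. With 2 arrays in each class, the absence of a call does not show that a gene is unchanged. The order of genes came from a gene table of GRCm38.p6, which matched 34741 probe sets. Every member was to be named, with all arrays for the 4 largest differences in each direction, the catalytic subunits, Psmd2, Psmd4, Psmd14 and the brightest and dimmest member. Listed genes past the threshold and a fixed few were named; the others were named after their values were seen. Members, lists, motifs and alternatives were chosen with earlier results of these data known. Tables and figures came from Python 3.11.15 with pandas 2.3.3 and matplotlib 3.10.9.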

Additional observations from a re-analysis of the deposited data

How the results depend on the processing

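All probe sets called were 1618, against 152 with the hybridization control level as a block (it crosses the classes: 10.79 and 11.23 in high, 11.32 and 10.72 in low switching replicates 1 and 2), 163 with a minimum fold of 1.5, 1068 when the probe sets of a gene were averaged, and 308 to 582 with 1 array left out. Member probe sets called were 0, also in each fit with 1 array left out. They were 1 with cyclic loess, above the median probe set only, with an offset of 16 and with probe sets averaged, and 3 at a mean of at least 6 and under a variance trend, robust or not. The median over the members stayed within the spread between arrays under the alternatives run, from -0.060 to 0.064 with 1 array left out. Core minus regulatory particle was -0.075 with cyclic loess, -0.070 with quantile normalization again, -0.074 for constitutive subunits only, 0.032 without multi-transcript probe sets, and from -0.083 to 0.028 with 1 array left out.

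Some differences that had not passed changed sign. With the median of neighbouring genes subtracted, Pomp had 0.21, Psma8 0.25, Psmb7 0.11, Psmd14 0.051, Psmd2 0.14 and Usp14 0.068. These changes of sign are the arithmetic of the subtraction, since the median was negative for each, from -0.34 (Usp14) to -0.18 (Psmb7). Psma8 is also dim (mean 3.91). Pomp had 0.010 with cyclic loess, and Psmd2 0.0070 with its probe sets averaged. With 1 array left out, Pomp ran from -0.064 to 0.030, Psma8 from -0.14 to 0.13, Psmb5 from -0.18 to 0.11, Psmb7 from -0.17 to 0.050, Psmd2 from -0.15 to 0.038, Psme1 from -0.16 to 0.040 and Uchl5 from -0.045 to 0.26. The cause of the other changes of sign was not tested. No paired analysis was possible because the labels give no replicate number that pairs arrays across the classes. With 2 arrays a class, the SE of a subunit's difference was 0.103 to 0.158.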
